A study of Mus musculus with 14 samples.

Results

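The genes described here carry the signal of erythropoietin, the hormone that keeps red cell precursors alive: Epor, the receptor; Jak2, its kinase; Stat5a and Stat5b, the transcription factors the kinase activates; Pim1 and Pim2, survival kinases; and Socs2, Socs3 and Cish, feedback inhibitors. They are 9 of 12393 genes measured. The platform annotation gave them 16 of the 22626 probe sets tested, a probe set being a group of short probes for 1 transcript, and all 16 were taken. Messenger RNA came from primitive erythroid precursors, laser-captured from frozen sections of the yolk sac of E9.5 mouse embryos, all labelled as strain FVB/N. The arrays comprised 8 from wild-type embryos, 3 from KLF1-/- embryos, which lack both copies of the gene of the erythroid transcription factor KLF1, and 3 labelled KLF1-/- KLF2-/-, which should also lack both copies of the gene of the related factor KLF2. The pregnant females were KLF1+/- or KLF1+/- KLF2+/-, and each sample pooled several yolk sacs from more than 1 litter. The sources used here do not say how the alleles were made or whether wild-type embryos were littermates of mutants.

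Erythropoietin binding brings receptor chains together and activates JAK2, which phosphorylates the receptor tail. STAT5 docks there, is phosphorylated in turn, enters the nucleus and switches on genes that include those of the PIM kinases and of the feedback inhibitors. Most of this signal runs through protein phosphorylation, which mRNA levels do not measure. Primitive precursors of the yolk sac carry the receptor, and erythropoietin supports their survival and maturation, although early primitive red cells form without it.

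The numbers in the array titles form 2 runs, with wild-type arrays 1 to 4 and KLF1-/- arrays 5, 6 and 8 in the first and wild-type arrays 9 to 12 and KLF1-/- KLF2-/- arrays 13 to 15 in the second. No label calls the runs batches. Klf1 was 10.67 ± 0.63 in wild type (log2 expression, mean ± SD, n = 8), 9.45 ± 0.39 in KLF1-/- (n = 3) and 9.15 ± 0.53 in KLF1-/- KLF2-/- (n = 3). For Klf1 every mutant array lay below every wild-type array, as for 0.106% of all probe sets. Klf2 was 6.25 ± 0.25, 6.22 ± 0.28 and 6.69 ± 0.32 in the same order, so it was not lower on the arrays labelled KLF1-/- KLF2-/-. No label says whether these probes fall inside what was deleted, so their values check nothing. The embryonic globin gene Hbb-y was at 14.42 ± 0.11 in wild type. Means over marker lists in wild type were 9.96 for 11 erythroid genes, 11.08 for 11 visceral endoderm genes and 9.78 for 10 mesenchyme genes. Transcripts of other yolk sac cells were thus present, and fewer cells of a type and less RNA per cell cannot be told apart in it.

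KLF1 binds GC-rich and CACCC letters, and STAT5 binds TTCNNNGAA, so the promoters of the members were read for these letters on both strands. RefSeq windows of 300 bases around annotated starts (GRCm38.p6) were found for 8 of the 9 genes, 11 windows in all, and none was matched for Socs2. The letters CCNCNCCC, a loose form of the KLF element, were in 8 of the 11 windows and in 49.5% of all 32851 promoter windows. The stricter CCACACCC was in 0 of the 11 and in 3.6% of all. TTCNNNGAA was in 2 of the 11, those of Cish and Socs3, and in 8.3% of all, and the GATA letters AGATAA were in 1, that of Epor, and in 11.2% of all. The sequences below show the receptor promoter and the windows around the TTCNNNGAA matches, with matches in capitals. These are matches of letters and not measured binding sites.

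Epor, chr9:21963577-21963826, minus strand, the 250 bases before the start: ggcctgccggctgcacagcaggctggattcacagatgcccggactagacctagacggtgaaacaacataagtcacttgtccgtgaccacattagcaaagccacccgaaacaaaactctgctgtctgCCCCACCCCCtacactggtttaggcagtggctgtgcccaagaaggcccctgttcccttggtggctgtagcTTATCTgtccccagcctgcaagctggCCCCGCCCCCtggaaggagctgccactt
Cish, chr9:107296656-107296683, plus strand, around the start: gttTTCCTGGAAagTTCTTGGAAatctg
Socs3, chr11:117969451-117969530, minus strand, before the start: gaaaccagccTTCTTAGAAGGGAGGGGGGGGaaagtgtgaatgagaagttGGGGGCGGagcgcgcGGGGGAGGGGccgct

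In the Epor window the runs CCCCACCCCC and CCCCGCCCCC each hold a pair of overlapping CCNCNCCC matches, beginning at bases -124 and -122 and at -28 and -26 from the start, and TTATCT at -54 is AGATAA on the other strand. The Cish stretch holds 2 TTCNNNGAA matches, at bases 1 and 12. In the Socs3 stretch TTCTTAGAA lies at -154 and the other capitals are CCNCNCCC matches on the other strand, some overlapping.

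No member differed between genotypes past the threshold. One limma model was fitted to all 22626 probe sets with a mean per genotype, and a probe set was called at a Benjamini-Hochberg adjusted p under 0.05. In KLF1-/- against wild type 0 of the 16 member probe sets were called, where 0.0265% of all probe sets were. In KLF1-/- KLF2-/- against wild type 0 of 16 were called, against 0.0221% of all, and between the mutant genotypes 0, against 0% of all. For the mean of both mutant genotypes against wild type 0 were called, against 0.0707% of all. The adjusted p in limma was 0.9998 for every member in KLF1-/-, 0.9999 in KLF1-/- KLF2-/- and in the mutant mean, and 1 between the mutants.

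At an unadjusted p under 0.05 the only member was Pim2, lower in KLF1-/- and in the mutant mean. Of all probe sets 1.92% reached that level in KLF1-/-, 0.738% of all being lower, and 2.76% in the mutant mean, 0.888% being lower. In KLF1-/- KLF2-/- 0 members reached it, against 2.11% of all, and between the mutant genotypes 0, against 0.628%. The median log2 difference of the 16 probe sets was 0.11 in KLF1-/-, with 11 above 0 and 5 below, against 0.0059 over all probe sets. In KLF1-/- KLF2-/- it was 0.04, with 9 above 0 and 7 below, against 0.005 over all. For no member did all arrays of a mutant genotype lie beyond all 8 wild-type arrays, a pattern that 0.513% of all probe sets showed in KLF1-/- and 0.698% in KLF1-/- KLF2-/-. Nor did all 6 mutant arrays lie beyond them for any member, as they did for 0.168% of all. With 3 arrays per mutant genotype the intervals were wide, as the plot of differences for each probe set shows.

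**Figure D1:**
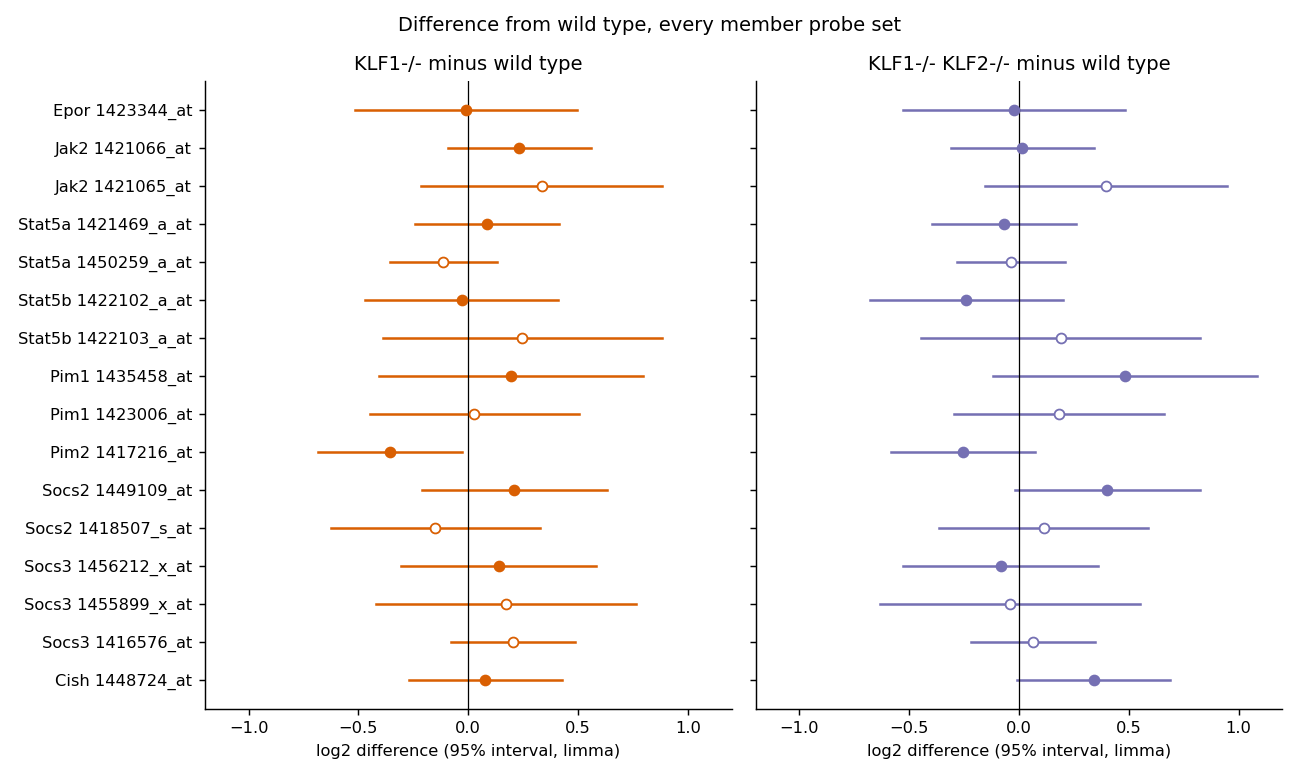
Log2 difference from wild type (x axis) of each of the 16 member probe sets (y axis), with 95% intervals from limma, for KLF1-/- (left) and KLF1-/- KLF2-/- (right). Filled points mark the brightest probe set of a gene. Of all 32 intervals, that of Pim2 in KLF1-/- is the only one that leaves out 0, before adjustment for the number of probe sets.

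Epor, the receptor gene, had 1 probe set (1423344_at). Its log2 expression on wild-type arrays 1 to 4 was 8.07, 8.71, 7.95 and 8.63, and on wild-type arrays 9 to 12 it was 9.34, 8.94, 8.96 and 8.79. On KLF1-/- arrays it was 8.75, 8.73 and 8.53, and on KLF1-/- KLF2-/- arrays 8.61, 8.77 and 8.57. The mutant arrays lay close together in the middle of the wild-type range, and all 4 wild-type arrays of the second run lay above all 4 of the first. The difference from wild type was -0.0088 in KLF1-/- (SE 0.236, 95% interval -0.52 to 0.50) and -0.02 in KLF1-/- KLF2-/- (95% interval -0.53 to 0.48). These intervals leave room for a change of about the size of 0.50 in either direction.

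That receptor result depended on which wild-type arrays were used. Between the wild-type runs Epor differed by 0.67, from 8.34 ± 0.39 (SD, n = 4) in arrays 1 to 4 to 9.01 ± 0.23 (n = 4) in arrays 9 to 12. The exact permutation p was 0.0286, the smallest that 4 against 4 arrays allow, and the limma adjusted p was 0.6392. Against its own run, Epor was 0.33 higher in KLF1-/- (exact permutation p = 0.2857) and 0.36 lower in KLF1-/- KLF2-/- (-0.358, exact permutation p = 0.0571, the smallest that 3 against 4 allow). All 3 KLF1-/- KLF2-/- arrays lay below wild-type arrays 9 to 12, as 1.46% of all probe sets did. With the run as a block in limma the difference between the mutant genotypes moved from -0.02 to -0.68 (adjusted p = 1).

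**Figure D2:**
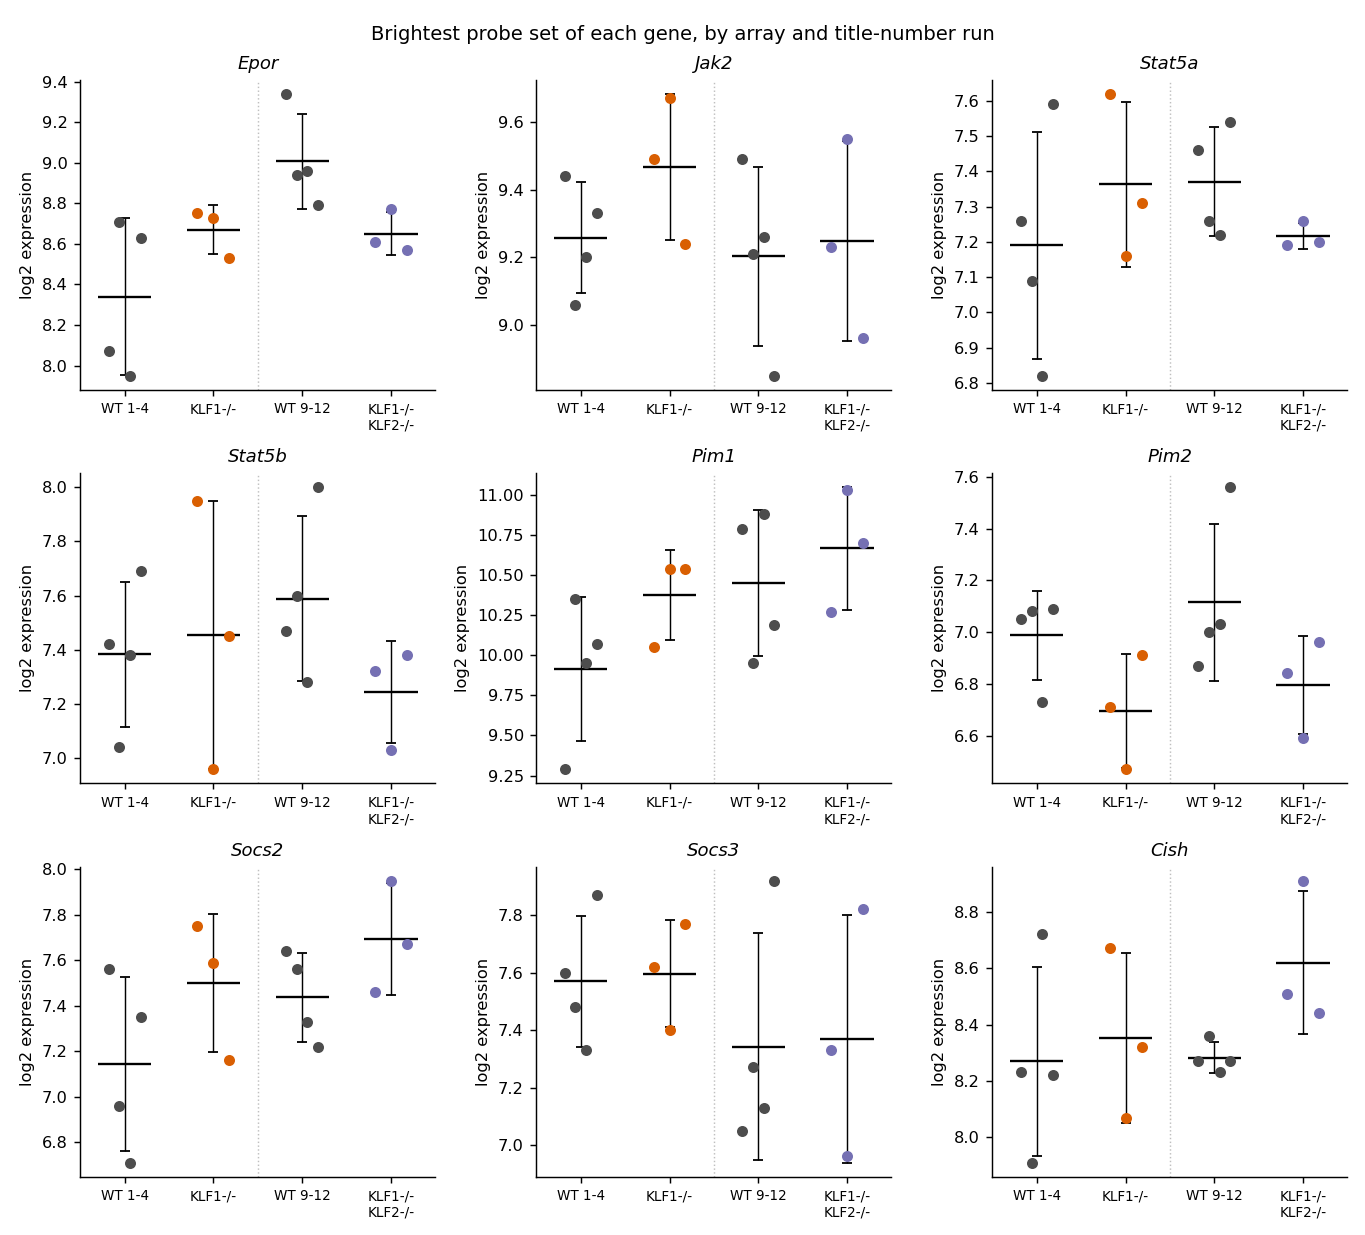
Log2 expression (y axis) of the brightest probe set of each member gene on every array, by number run and genotype (x axis). Points are arrays, horizontal bars means and vertical bars SD, and the dotted line parts the runs. Epor on wild-type arrays 9 to 12 (8.79 to 9.34) lies above wild-type arrays 1 to 4 (7.95 to 8.71), with both mutant genotypes between 8.53 and 8.77.

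Jak2, the kinase bound to the receptor, was read by 2 probe sets. On 1421066_at wild type averaged 9.23 ± 0.21 (SD, n = 8), KLF1-/- 9.47 ± 0.22 (n = 3) and KLF1-/- KLF2-/- 9.25 ± 0.29 (n = 3), and the runs of wild-type arrays differed by -0.05. On 1421065_at wild-type arrays 1 to 4 were at 6.11, 6.47, 5.96 and 6.16 and arrays 9 to 12 at 6.98, 6.69, 6.88 and 6.82. KLF1-/- arrays were at 6.58, 7.44 and 6.51 there, and KLF1-/- KLF2-/- arrays at 6.79, 7.30 and 6.62. As for Epor, every wild-type array of the second run was above every one of the first (0.67, exact permutation p = 0.0286; limma adjusted p = 0.6392). KLF1-/- was 0.67 above its own run without overlap (exact permutation p = 0.0571), a pattern that 1.56% of all probe sets showed, and 0.33 above all wild type (SE 0.256). KLF1-/- KLF2-/- was 0.06 above its own run and 0.40 above all wild type. With the run as a block the difference between the mutant genotypes on this probe set turned from 0.06 to -0.61 (limma adjusted p = 1).

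Across the 16 probe sets, Epor and Jak2 1421065_at were the 2 whose wild-type runs did not overlap, both higher in the second run, where 1.12% of all probe sets did the same. In limma 0 members and 0 of all probe sets were called between the wild-type runs, with 3 of the 16 members (Epor, Jak2 1421065_at and Stat5b 1422103_a_at) and 7.13% of all at an unadjusted p under 0.05. Over wild-type arrays 1 to 4 the erythroid marker mean of 11 genes was 9.71 (9.60 to 9.92), and over 9 to 12 it was 10.21 (9.67 to 10.76). The visceral endoderm marker mean moved the other way, from 11.38 (10.88 to 11.92) to 10.77 (10.37 to 11.47). The relation of Epor with the erythroid markers is given with the plot of both, and the part of the visceral endoderm markers was not tested.

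**Figure D3:**
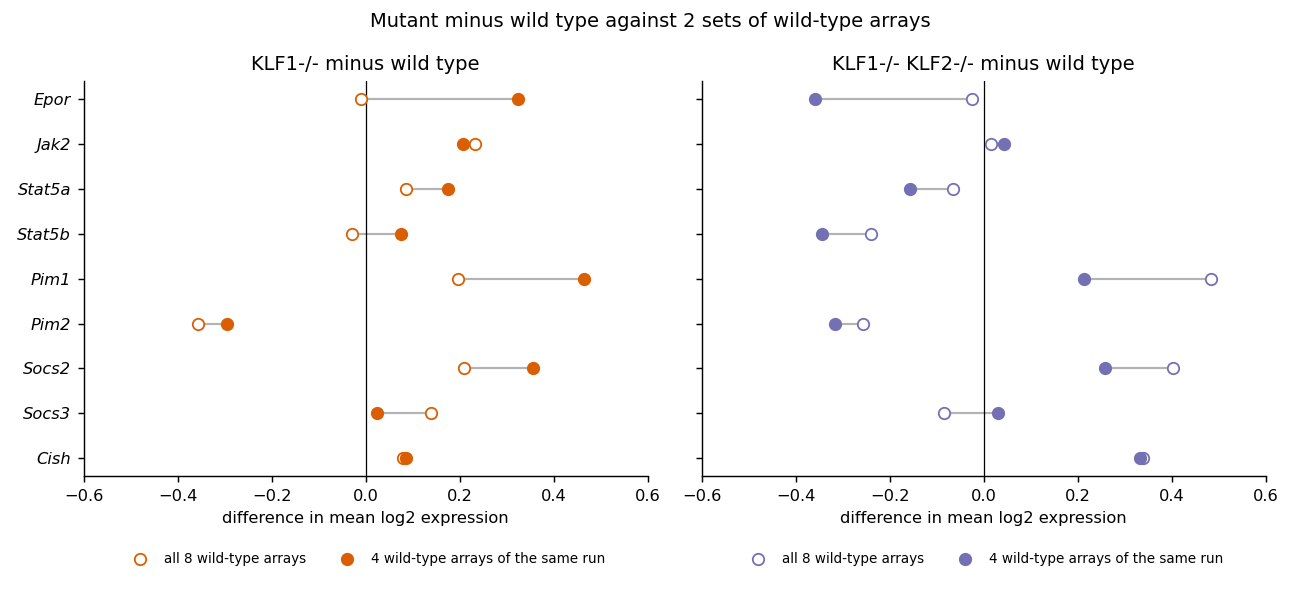
Difference in mean log2 expression from wild type (x axis) of the brightest probe set of each member (y axis), against all 8 wild-type arrays (open points) and against the 4 of the same number run (filled points). The Epor points move from -0.0088 to 0.33 in KLF1-/- (left) and from -0.02 to -0.36 in KLF1-/- KLF2-/- (right). Only Epor and Stat5b in KLF1-/- and Socs3 in KLF1-/- KLF2-/- cross 0 between the open and the filled point.

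Stat5a and Stat5b, the transcription factors of the pathway, differed little and not in the same way on their probe sets. For Stat5a on 1421469_a_at wild type averaged 7.28 ± 0.25 (SD, n = 8), KLF1-/- 7.37 ± 0.24 (n = 3) and KLF1-/- KLF2-/- 7.22 ± 0.04 (n = 3), and on 1450259_a_at its differences were -0.11 and -0.04. The signal of 1450259_a_at was weak, above that of only 10.3% of all probe sets. Stat5b on 1422102_a_at was 7.48 ± 0.29, 7.46 ± 0.49 and 7.24 ± 0.19 in the same order of genotypes. On 1422103_a_at Stat5b differed by 0.25 in KLF1-/- (SE 0.296) and by 0.19 in KLF1-/- KLF2-/-, and its wild-type runs differed by 0.59 (exact permutation p = 0.0571). Against the own run these Stat5b differences were 0.54 in KLF1-/- and -0.11 in KLF1-/- KLF2-/-, the second turned in sign. KLF1-/- array 6 was lowest of all arrays on the first Stat5b probe set, at 6.96, and highest on the second, at 7.29.

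Pim2, a survival kinase gene with 1 probe set (1417216_at), was at 7.05, 7.08, 6.73 and 7.09 on wild-type arrays 1 to 4 and at 6.87, 7.0, 7.03 and 7.56 on 9 to 12. The KLF1-/- arrays were at 6.71, 6.47 and 6.91 and KLF1-/- KLF2-/- arrays at 6.84, 6.59 and 6.96. The mutant arrays were low but overlapped wild-type arrays 3 and 9. The difference was -0.36 in KLF1-/- (SE 0.153, 95% interval -0.68 to -0.03) and -0.26 in KLF1-/- KLF2-/- (SE 0.153, 95% interval -0.58 to 0.07). By exact permutation of the arrays the two-sided p was 0.0485 and 0.097 against all wild type, and 0.1143 for each genotype against its own run, where the differences were -0.29 and -0.32. The limma adjusted p of 0.9998 does not pass, so Pim2 is reported as the member with the smallest p and not as a change.

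Pim1, the other survival kinase gene, was on 1435458_at at 9.29, 10.35, 9.95 and 10.07 on wild-type arrays 1 to 4 and at 10.79, 9.95, 10.88 and 10.19 on 9 to 12. Those of KLF1-/- were at 10.05, 10.54 and 10.54, and KLF1-/- KLF2-/- arrays at 10.27, 11.03 and 10.70. The genotypes overlapped. The difference was 0.20 in KLF1-/- (95% interval -0.41 to 0.80) and 0.48 in KLF1-/- KLF2-/- (SE 0.281, 95% interval -0.12 to 1.09), and 0.47 and 0.21 against the own run. With the run as a block the Pim1 difference between the mutant genotypes turned from 0.29 to -0.25 (limma adjusted p = 1). The other probe set, 1423006_at, gave 0.03 and 0.18, from a weak signal above that of only 22.0% of all probe sets.

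Of the feedback inhibitors, Cish and Socs2 had the 2 largest positive differences of the 3 genes in KLF1-/- KLF2-/-. Cish (1448724_at) was at 8.23, 7.91, 8.72 and 8.22 on wild-type arrays 1 to 4 and at 8.27, 8.36, 8.23 and 8.27 on 9 to 12. KLF1-/- arrays were at 8.67, 8.07 and 8.32 and KLF1-/- KLF2-/- arrays at 8.51, 8.91 and 8.44. The KLF1-/- KLF2-/- arrays were above every wild-type array but array 3, and above all 4 of their own run, as 2.89% of all probe sets were. The difference was 0.34 in KLF1-/- KLF2-/- (SE 0.162, 95% interval -0.0084 to 0.69; exact permutation p = 0.097) and 0.33 against the own run (exact permutation p = 0.0571). In KLF1-/- it was 0.08 (95% interval -0.27 to 0.43), and between the mutant genotypes 0.26 (SE 0.196, limma adjusted p = 1).

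Socs2 on 1449109_at was at 7.56, 6.96, 6.71 and 7.35 on wild-type arrays 1 to 4 and at 7.64, 7.56, 7.33 and 7.22 on 9 to 12. The KLF1-/- arrays were at 7.75, 7.59 and 7.16 and KLF1-/- KLF2-/- arrays at 7.46, 7.95 and 7.67. Those of KLF1-/- KLF2-/- lay in the upper part of the wild-type range or above it. The difference was 0.40 in KLF1-/- KLF2-/- (SE 0.197, 95% interval -0.02 to 0.82; exact permutation p = 0.0727) and 0.21 in KLF1-/-. Against the own run it was 0.26 in KLF1-/- KLF2-/- (exact permutation p = 0.2286) and 0.36 in KLF1-/- (exact permutation p = 0.2286), so the order of the mutant genotypes turned. The other Socs2 probe set, 1418507_s_at, gave 0.11 and -0.15, so the probe sets disagreed in sign in KLF1-/-. Its signal was weak, above that of 31.5% of all probe sets.

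Socs3, the third inhibitor, had 3 probe sets, and none separated a mutant genotype from wild type. On 1456212_x_at the 8 wild-type arrays averaged 7.45 ± 0.32 (SD), those of KLF1-/- 7.59 ± 0.19 (n = 3) and those of KLF1-/- KLF2-/- 7.37 ± 0.43 (n = 3). Differences in KLF1-/- were 0.14, 0.17 and 0.21 over the 3 probe sets, and in KLF1-/- KLF2-/- -0.08, -0.04 and 0.06. On 1416576_at all KLF1-/- KLF2-/- arrays (5.93 to 6.14) lay below all KLF1-/- arrays (6.14 to 6.25), by 0.14 on the mean, though the nearest arrays of each both round to 6.14. It was the only member probe set to do so, 1.61% of all did, and the limma adjusted p was 1. With the run as a block the difference was -0.0013. On 1455899_x_at wild-type array 1 was at 8.47 and the other wild-type arrays between 6.82 and 7.93.

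Several member probe sets followed the spread of the whole array within genotypes. The interquartile range of an array's log2 values ran from 2.31 to 3.12. With genotype means removed, the Pearson r with that range over the 14 arrays was -0.883 for Pim1 1423006_at, -0.876 for Stat5a 1450259_a_at and -0.826 for Stat5b 1422102_a_at, and 0.763 for Stat5b 1422103_a_at. The Stat5b probe sets therefore ran in opposite directions with the same array measure. For Epor r was 0.326, for Pim2 -0.566, for Cish -0.406 and for Socs2 1449109_at 0.255. These are descriptions of values that share an array, with no test.

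Epor varied with erythroid marker genes across the arrays. Against the mean of 11 erythroid marker genes, with genotype means removed from both, Pearson r was 0.74 (permutation p = 0.00286) and Spearman rho 0.842 (permutation p = 0.00026) over 14 arrays, the only relation tested in this way. Without the 2 arrays farthest from the median marker mean, wild-type array 9 and KLF1-/- KLF2-/- array 14, r was 0.644. Over the 7 arrays of each run it was 0.734 and 0.814. The genotype means were taken over both runs, so the shift between the wild-type runs is part of all these r values. The permutations moved arrays across runs and do not allow for that shift. Both measures come from the same arrays. The marker mean itself was 9.96 in wild type (9.60 to 10.76), 9.86 in KLF1-/- (9.74 to 10.03) and 9.90 in KLF1-/- KLF2-/- (9.46 to 10.44). The 11 genes include Klf1 itself, at 10.67, 9.45 and 9.15 in the same order, which lowers the mutant means. Other markers moved both ways. Slc4a1 on its brightest probe set was at 12.25, 11.33 and 11.37, and Gata1 at 10.67, 11.09 and 11.13. Similar marker means thus do not show that the single markers were alike. A mean without Klf1 was not taken.

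**Figure D4:**
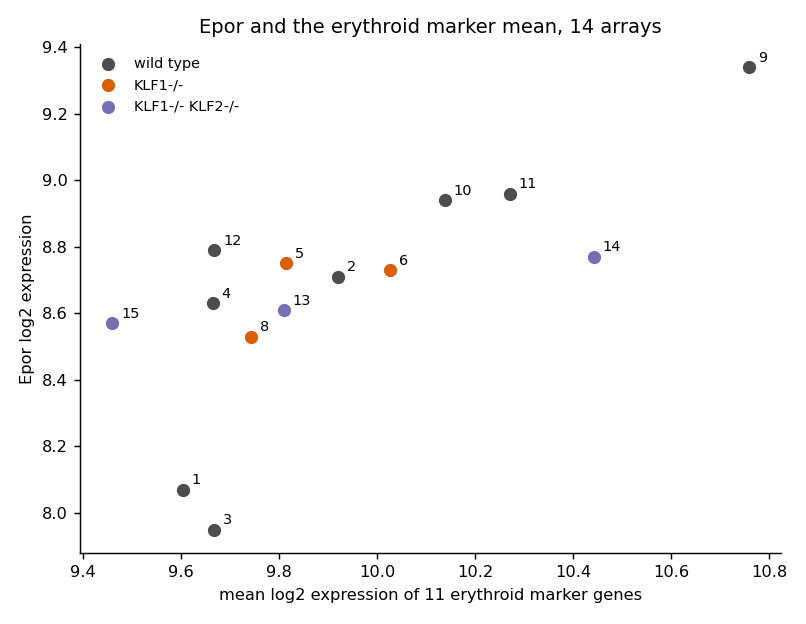
Epor log2 expression (y axis) against the mean log2 expression of 11 erythroid marker genes (x axis), 1 point per array, labelled with the array's title number and coloured by genotype. Wild-type array 9 is highest on both axes, at 9.34 for Epor, and wild-type arrays 1 and 3 are lowest for Epor, at 8.07 and 7.95.

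Among 12392 other genes, each read by its brightest probe set, those most like Epor over the 14 arrays, with genotype means removed, were Ermap (r = 0.959), Fiz1 (0.952), Rhag (0.943), Adipor2 (0.933) and Hdgf (0.925). The likeness is measured with genotype means removed. Across genotypes Ermap, unlike Epor, averaged 7.95 ± 0.22 on the 3 KLF1-/- arrays and 8.11 ± 0.27 on the 3 KLF1-/- KLF2-/- arrays, against 10.17 ± 0.93 over the 8 wild-type arrays (SD). For Ermap every mutant array was below every wild-type array, as for 0.106% of all probe sets. Ermap codes for an erythroblast membrane protein and Rhag for the Rhesus-associated glycoprotein of red cells. Rhag is also among the erythroid marker genes averaged above, so its likeness is not separate from that relation. The least like were Cxcr4, the chemokine receptor of stem and progenitor cells (r = -0.952), AU016916 (-0.933), Spn (-0.927), Snapin (-0.925) and Nfam1 (-0.92). Over wild-type arrays alone r was between 0.949 and 0.979 for the first 5 and between -0.977 and -0.94 for the last 5, which is no separate support, since these arrays are 8 of the 14 that chose the genes. After quantile normalization all of the last 5 were weaker, at -0.834 for Cxcr4, -0.793 for AU016916, -0.859 for Spn, -0.66 for Snapin and -0.822 for Nfam1. Hdgf was then at 0.84. Of the last 5, all but Snapin had weak signals, with means in the wild-type runs from 5.0 (Cxcr4) to 6.18 (Nfam1), below the array medians. Ermap was at 10.92 on wild-type arrays 9 to 12 and 9.41 on arrays 1 to 4, and Cxcr4 at 5.0 and 5.57, differences that the choice by likeness to Epor favours.

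Among the members, the closest pair was Jak2 1421065_at with Stat5b 1422103_a_at (r = 0.929 over 14 arrays, genotype means removed), and Epor followed Jak2 1421065_at (0.76), Stat5b 1422103_a_at (0.744) and Pim1 1435458_at (0.683). The first 2 of these also followed the interquartile range of the array. Jak2 1421066_at had r = 0.133 with Epor, so the Jak2 probe sets did not share this pattern.

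The wider pathway was read through 82 other genes with 175 probe sets in 5 lists. These lists were chosen with earlier results of these data known, so their shares do not test the pathway. In KLF1-/- 0 were called and 8 (4.57%) had an unadjusted limma p under 0.05, against 1.92% of all probe sets. In KLF1-/- KLF2-/- 0 were called and 12 (6.86%) reached that level, against 2.11% of all. Between the mutant genotypes 0 were called and 0 reached it, against 0.628% of all. In the mutant mean 1 was called and 12 (6.86%) reached it, against 2.76% of all. Of 22 probe sets for ligands and cytokine receptors 13 lay above 0 in KLF1-/- and 14 in KLF1-/- KLF2-/-, and of 40 for adaptors and kinases 24 and 23. Of 41 for negative regulators 19 lay above 0 in each, of 20 for other JAK and STAT genes 11 and 12, and of 52 for other erythropoietin and STAT5 responsive genes 36 and 32. Together 58.9% and 57.1% of the 175 lay above 0, against 51.9% and 51.7% of all probe sets.

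Spry1, which codes for an inhibitor of the RAS and MAP kinase branch of receptor signalling, was the 1 call of the wider lists, in the mean of both mutant genotypes. On wild-type arrays 1 to 4 it was at 7.94, 8.48, 8.10 and 8.39 and on 9 to 12 at 8.71, 8.47, 8.30 and 8.14. Those of KLF1-/- were at 9.09, 9.11 and 8.88 and KLF1-/- KLF2-/- arrays at 9.08, 9.19 and 8.84, all above every wild-type array, as 0.0619% of all probe sets were. Spry1 rose by 0.72 (SE 0.118, limma adjusted p = 0.04029). Singly, it was 0.71 higher in KLF1-/- (SE 0.148, limma adjusted p = 0.3473) and 0.72 higher in KLF1-/- KLF2-/- (limma adjusted p = 0.308), which did not pass. The call ended when any 1 array other than wild-type array 9 was left out (limma adjusted p 0.0557 to 0.1715), and with trend and robust variances (limma adjusted p = 0.1064) or Gapdh signal at the 3′ end relative to the 5′ end as a covariate (0.0733). Megakaryocyte and platelet markers were higher on the same arrays, with a mean over 9 genes of 6.96 in wild type (6.71 to 7.08), 7.19 in KLF1-/- (7.13 to 7.26) and 7.53 in KLF1-/- KLF2-/- (7.32 to 7.65), and their part in the Spry1 value was not tested. The negative regulators with the next smallest p, Dusp1 in KLF1-/- and Socs6 in KLF1-/- KLF2-/-, were lower there without a call. Dusp1, a MAP kinase phosphatase gene, differed by -0.72 in KLF1-/- (SE 0.331, limma adjusted p = 0.9998) and by -0.63 in KLF1-/- KLF2-/-. Socs6, a relative of the feedback inhibitors, differed on 1452764_at by -0.51 in KLF1-/- KLF2-/- (SE 0.193, limma adjusted p = 0.9999) and by -0.14 in KLF1-/-, and on its other probe set by -0.10 and 0.08.

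**Figure D5:**
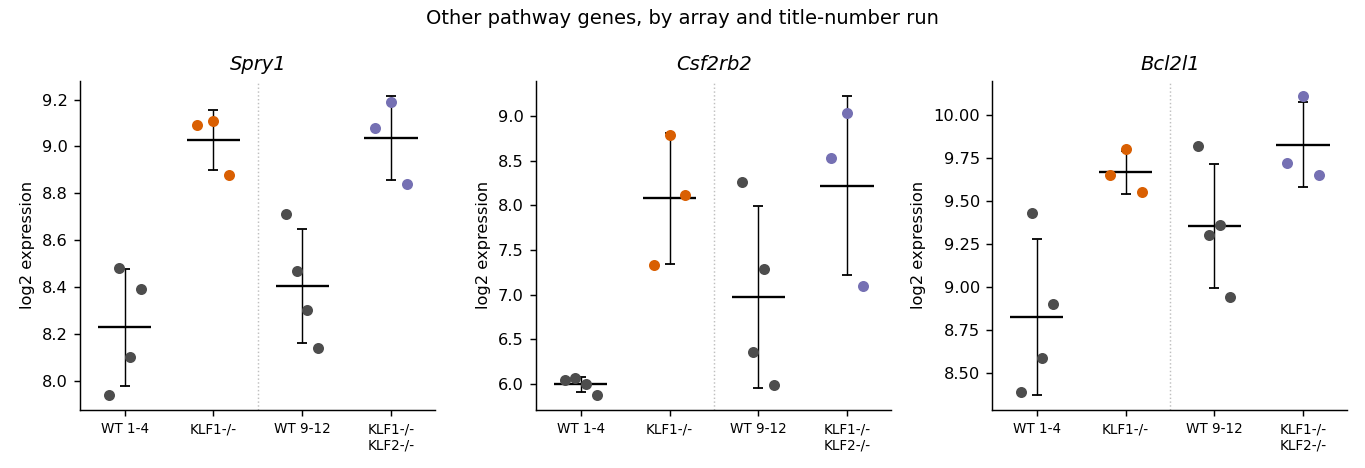
Log2 expression (y axis) of Spry1, Csf2rb2 and Bcl2l1 (1420888_at) on every array, by number run and genotype (x axis). Points are arrays, horizontal bars means and vertical bars SD. For Spry1 the 6 mutant arrays (8.84 to 9.19) lie above all wild-type arrays (7.94 to 8.71).

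Csf2rb2, which codes for a beta chain of the interleukin-3 receptor, was at 6.04, 6.07, 6.0 and 5.88 on wild-type arrays 1 to 4 and at 8.26, 6.36, 7.29 and 5.99 on 9 to 12. KLF1-/- arrays were at 7.33, 8.79 and 8.11 and KLF1-/- KLF2-/- arrays at 8.53, 9.03 and 7.10. It was 1.59 higher in KLF1-/- (SE 0.519) and 1.73 in KLF1-/- KLF2-/-, with limma adjusted p of 0.9998 and 0.9999, and the wild-type arrays spread over more than that. Macrophage and myeloid markers averaged 6.84 over 15 genes in wild type (6.61 to 7.06), 6.75 in KLF1-/- (6.72 to 6.80) and 7.11 in KLF1-/- KLF2-/- (7.08 to 7.15), and their part was not tested. In the same list Il3ra, the alpha chain gene, differed by -0.19 in KLF1-/- and Osmr, an oncostatin M receptor gene, by -0.28 in KLF1-/- KLF2-/-.

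Among adaptors and kinases, the insulin receptor substrate gene Irs2 differed by 0.51 in KLF1-/- (SE 0.157) and by 0.17 in KLF1-/- KLF2-/-. Sos1, an activator of RAS, differed by 0.23 in KLF1-/-, and in KLF1-/- KLF2-/- the tyrosine kinase gene Btk differed by 0.26 and the exchange factor gene Vav1 by 0.19. Of the other JAK genes, Tyk2 differed by 0.22 in KLF1-/-, and Jak1 on 1433805_at by 0.42 in KLF1-/- and by 0.35 in KLF1-/- KLF2-/-, where it differed by 0.56 on 1433804_at. On the remaining Jak1 probe set the differences were 0.10 and -0.0029, and on the others of Sos1 in KLF1-/- 0.04 and -0.0032. The limma adjusted p of each of these was 0.9998 or 0.9999.

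Of the genes that respond to erythropoietin and STAT5, Tfrc, the transferrin receptor, differed by -1.50 in KLF1-/- (limma adjusted p = 0.7199) and by -1.53 in KLF1-/- KLF2-/- (0.5736) on 1452661_at. On this probe set every mutant array lay below every wild-type array, as 0.106% of all probe sets did. In the mutant mean it differed by -1.51 (limma adjusted p = 0.1041), which did not pass. On the other Tfrc probe sets the KLF1-/- differences were -0.82 and -0.24. Myc, which codes for the transcription factor c-MYC, differed by -0.46 in KLF1-/- (limma adjusted p = 0.9998) and by -0.89 in KLF1-/- KLF2-/- (0.7876). Between the mutant genotypes Myc differed by -0.43, which was not called. Bcl2l1, the gene of the survival protein BCL-XL and a known STAT5 target, was chosen after its values were seen. On 1420888_at it was 0.58 higher in KLF1-/- (SE 0.246) and 0.74 in KLF1-/- KLF2-/-, with a limma adjusted p of 0.7635 for the mutant mean. Its 3 other probe sets differed by -0.14 to 0.08 in KLF1-/-. Their signal was weak, at 5.3, 4.71 and 5.51 in wild type against 9.09 on 1420888_at.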

How the data were processed

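Arrays were Affymetrix mouse expression arrays hybridised with RNA amplified in a two-cycle reaction from a small input, per the labels' protocols. The log2 expression values were deposited by the authors, 1 per probe set and array. RMA, affy, limma and GCOS appear, without versions, in the submitters' processing notes. The RMA method corrects background, normalizes and combines probes, and it compresses differences between weak signals. Array medians ran from 6.55 to 6.67, but interquartile ranges from 2.31 to 3.12, so the arrays were not evenly spread. The values were used as deposited, with quantile normalization as an alternative. The 64 controls among 22690 probe sets were left out. Of the others 20380 had 1 gene symbol, 691 several and 1555 none, and every member probe set had 1.

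All 14 arrays entered one model (R 4.3.3, limma 3.58.1, two-sided moderated tests by lmFit and eBayes), adjusted by Benjamini-Hochberg over 22626 probe sets. The fit was tested on simulated data with independent noise and no run shift or shared array spread. Of true log2 changes of 1 in either direction, 78% were called in KLF1-/- and 70% to 82% in KLF1-/- KLF2-/-. These shares may not hold for the real arrays, and smaller changes were not simulated. Single members were compared by exact two-sided permutation tests of means. Replicates are pools of yolk sacs, and the sources used here do not say whether pools shared litters, so p-values measure the spread between these samples. The number of arrays limits the precision.

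The members, gene lists and tests were chosen with earlier results of these data known. Named genes were every member; in each wider list the called probe sets, or else the 2 with the smallest p per mutant genotype; the 5 genes most and least like Epor; and Klf1 and Klf2. Bcl2l1 was added after its values were seen. Promoters came from RefSeq (GRCm38.p6). Alternatives were the number run as a block or alone, quantile normalization, a filter at the median, 1 probe set per gene, trend and robust variances, array weights, a Gapdh 3′ covariate and leaving out each array. Quantile normalization with the block, the interquartile range as a covariate and weights with a strong prior were added after seeing the data. Tables and figures used Python 3.11.15, pandas 2.3.3, numpy 2.4.6, scipy 1.17.1 and matplotlib 3.10.9; statmod 1.5.0 was loaded for limma.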

Additional observations from a re-analysis of the deposited data

Results flagged for a closer look

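Pim2 (1417216_at) on wild-type array 12 was at 7.56 log2, apart from the other 7 wild-type arrays, the nearest of which was at 7.09, a gap of 0.563 of the whole range of the group. Pim2 on wild-type array 3 was at 6.73, apart from wild-type arrays 1, 2 and 4, the nearest of which was at 7.05, a gap of 0.891 of their range. These were the 2 samples that stood apart in 48 groups tested, where chance gives about 1 in 20. The cause was not tested.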

How the results depend on the processing

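No member was called under any alternative but 1, default array weights, which gave 2 called members in KLF1-/-, 2 in KLF1-/- KLF2-/- and 9 between the mutant genotypes, and 13, 40, 104 and, in the mutant mean, 10 calls in the wider lists. Those weights ran from 0.167 for KLF1-/- array 6 to 93 for KLF1-/- KLF2-/- array 13 from a fit of weights that stopped before it converged, and called 1494, 4704, 13656 and 716 of all probe sets; Pim1 1435458_at turned to -0.25 between the mutants (limma adjusted p = 0.04293). With a strong prior the weights ran from 0.562 to 1.45 and 0 members were called. Without default weights the smallest adjusted p of a member was 0.9412 in KLF1-/-, 0.9074 in KLF1-/- KLF2-/-, 0.9999 between the mutants and 0.6587 in the mutant mean, and 8, 7, 11 and 6 of the 16 differences changed sign under at least 1 alternative.

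Spry1 was the 1 wider call in the mutant mean. There were 2 with the number run as a block, with the filter, with quantile normalization and with the last and the block together, the second being Tfrc, and 3 with the interquartile range as a covariate (Spry1, Tfrc and Myc). There were 0 with trend and robust variances (Spry1 adjusted p = 0.1064) and with the Gapdh covariate (0.0733), and 0 to 1 when 1 array was left out. In KLF1-/- KLF2-/- quantile normalization with the block gave 1, Tfrc (adjusted p = 0.002809).

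Over all probe sets 6 were called in KLF1-/-, 2 with the block and 1 against the own run; 5 in KLF1-/- KLF2-/-, 21 with the interquartile range and 1 without array 13 or 14; and 16 in the mutant mean, 47 with the interquartile range, 31 with quantile normalization and 39 with both it and the block. With 1 array left out these counts ran from 2 to 7, from 1 to 7 and from 6 (without wild-type array 10 or 11, KLF1-/- array 5 or KLF1-/- KLF2-/- array 13) to 25 (without wild-type array 9). No paired analysis was possible because the groups compared share no replicate numbers.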
